A study of Mus musculus with 4 samples.

Results

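Matrilins and cartilage matrix genes are described here as 10 genes read from the deposited table by the symbol in each amplicon name: the 4 matrilins Matn1, Matn2, Matn3 and Matn4, the proteoglycan gene Acan, the link protein gene Hapln1, and the collagen genes Col2a1, Col9a1, Col9a2 and Col10a1. All 10 were found among 23930 amplicons. The cells were primary progenitors of subcutaneous tissue. The mice were C57BL/6 and carried floxed Gnas, the gene of the G protein subunit that stimulates cyclic AMP production. The 2 control libraries came from cells given an adenovirus with green fluorescent protein (Ad-GFP, genotype wild type), and the 2 mutant libraries from cells given an adenovirus with Cre recombinase (Ad-Cre, genotype Gnas-/-). All cells carried the floxed gene and all were kept for 7 days in osteogenic medium, which favours bone formation. Mutation and virus differ between the groups together, so loss of Gnas and the difference between the viruses cannot be told apart. The labels give neither the age nor the sex of the mice, and leave it unsaid if replicates were separate animals or dishes, so the p-values cover the spread among these libraries alone. The cells were freed from the tissue by collagenase type I and trypsin, and the labels name no sorting step.

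Cartilage is a tissue of few cells in much matrix. Fibrils of collagen II, decorated by collagen IX, hold the large proteoglycan aggrecan, which is tied to hyaluronan by link protein and draws in water. Matrilins are oligomeric adaptor proteins with von Willebrand factor A domains that connect collagen fibrils, proteoglycans and other matrix proteins. Matrilin-1 and matrilin-3 are known mainly from cartilage, whereas matrilin-2 and matrilin-4 are also found in loose connective tissue, skin and nerve. Collagen X is laid down by hypertrophic chondrocytes, the cells of a growth plate that precede bone.

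The values are RPM, the reads of 1 short amplicon per gene scaled to an equal library total, so a value measures that amplicon only and levels of different genes cannot be ranked against each other. The libraries held 13483518 to 18455811 reads, computed from the steps between low values, and the limit for an amplicon without a read was taken as 3 reads, equal to 0.163 to 0.222 RPM. No row was named Gnas, so the genotype could not be checked at the targeted gene. The 2 controls stood further apart than the 2 mutants: of 11638 tested genes, 507 differed by over 4-fold between the controls and 11 between the mutants on the log2(RPM + 1) scale. Xist, the RNA of the inactive X chromosome, was at 165 RPM in control 1 but at 0 in control 2, and at 395 and 419 RPM in the mutants. Ddx3y, a gene of the Y chromosome, had 61.4 RPM in control 1, 124 in control 2 and less in the mutants (26.9 and 12.5 RPM). Control 1 and both mutants had reads of both genes, as a mix of female and male cells would have, while control 2 had Ddx3y alone. Both genes thus differed between the controls. Their values do not overlap between the groups, so that the sex of the cells cannot be told apart from mutation and virus. The 15 macrophage markers summed to 51.6 RPM in control 1, 1043 in control 2 and 20.6 to 33.7 in the mutants. Of those markers 9 were tested and none passed (limma). At an unadjusted p under 0.05 (limma), 2 were lower and 0 higher, against 6.01% lower and 11.9% higher of all tested genes. By edgeR 0 were called, and by DESeq2 5 were lower, against 4.24% of all tested genes. Tyrobp, Ctss, Fcer1g and Laptm5 reached the filter of 1 RPM in 2 libraries through the controls alone, so the filter fixed their direction. In such bulk samples, fewer cells of a type and less RNA per cell cannot be told apart.

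The windows of 250 bases before an annotated start of Matn4, Matn3 and Col10a1 are shown first, since these are the tested members whose reads came almost entirely from the mutant libraries. They are from RefSeq on GRCm38.p6, in which 8 of the 10 members have an entry. Matn4 has 2 entries, and the window shown is that of the outer start, chr2:164405161-164405410 on the minus strand. The other, chr2:164404819-164405068, held no match to the motifs below. The others shown are the Matn3 window chr12:8947679-8947928 on the plus strand and the Col10a1 window chr10:34389731-34389980 on the plus strand. Each is written 5′ to 3′ in the direction of its gene, and capitals mark the only match to any of the 5 motifs searched, a TATA box of Col10a1, in these 3 windows.
Matn4: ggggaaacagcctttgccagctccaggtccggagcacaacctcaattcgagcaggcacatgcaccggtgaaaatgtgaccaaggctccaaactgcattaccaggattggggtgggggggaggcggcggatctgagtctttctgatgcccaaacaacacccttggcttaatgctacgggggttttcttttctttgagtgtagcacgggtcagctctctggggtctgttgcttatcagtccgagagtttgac
Matn3: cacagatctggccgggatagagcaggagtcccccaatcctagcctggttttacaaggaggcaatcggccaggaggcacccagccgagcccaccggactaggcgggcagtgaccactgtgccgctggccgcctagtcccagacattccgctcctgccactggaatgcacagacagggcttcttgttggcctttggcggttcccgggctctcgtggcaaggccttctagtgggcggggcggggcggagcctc
Col10a1: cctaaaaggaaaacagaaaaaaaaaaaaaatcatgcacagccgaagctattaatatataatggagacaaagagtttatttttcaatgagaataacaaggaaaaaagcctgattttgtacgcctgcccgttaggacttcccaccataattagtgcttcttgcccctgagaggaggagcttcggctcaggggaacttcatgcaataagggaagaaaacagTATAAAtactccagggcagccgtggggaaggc
The search covered both strands for the Gli core GACCACCCA, the cyclic AMP response element TGACGTCA, the SOX core AACAAT, the RUNX core TGTGGT and the TATA box TATAAA. Of 32851 windows of the same length, 0.225% held the Gli letters, 1.55% the cyclic AMP response element, 9.42% the SOX core, 14.0% the RUNX core and 12.4% the TATA box. The TATA match of Col10a1 begins 32 bases before the start, and with 1 match there was no overlap between motifs. Of the other members with an entry, Matn1 and Hapln1 each held a RUNX core, 134 and 160 bases before their starts. No match in the Matn4 and Matn3 windows says only that these letters are not in these 250 bases, and a match is a description of the sequence.

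Matn4 rose in the mutant libraries, from 2 reads over both controls to at least 147 RPM in each mutant, and was the only member past the threshold. Matn3 and Col10a1 were seen at a few RPM in the mutants and hardly or not at all in the controls, but did not pass. Matn2 was expressed in every library and did not pass. Acan and Hapln1 had no read in any library, and Col2a1, Col9a1, Col9a2 and Matn1 stayed below 1 RPM throughout. The amplicons of Acan, Hapln1 and Col2a1, matrix genes that define chondrocytes, were thus at 0 or below 1 RPM in all 4 libraries. Of the 10 members, 4 reached the filter of at least 1 RPM in at least 2 libraries (Matn2, Matn3, Matn4 and Col10a1). Of these 1 was higher, 0 were lower and 3 did not pass, against 1.73% higher and 0.576% lower among all 11638 tested genes. At an unadjusted p under 0.05 (limma) the 4 tested members were higher and 0 lower, against 11.9% higher and 6.01% lower of all tested genes, and neither edgeR nor DESeq2 called a member lower. By edgeR 1 member was higher, against 0.567% of all genes (0.232% lower), and by DESeq2 3 were, against 5.14% (4.24% lower). Without control 1, 3 members were higher, against 13.8% (6.89% lower), and without control 2, 2 were, against 9.15% (6.82% lower). In these fits and in every fit below that leaves out a control, the lone control is assumed to vary like the 2 mutants, which lay closer together than the controls, so that their smaller p-values are no sign of a firmer difference. Matn3, Matn4 and Col10a1 reached the filter through the mutants alone, so the filter fixed their direction.

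**Figure D1:**
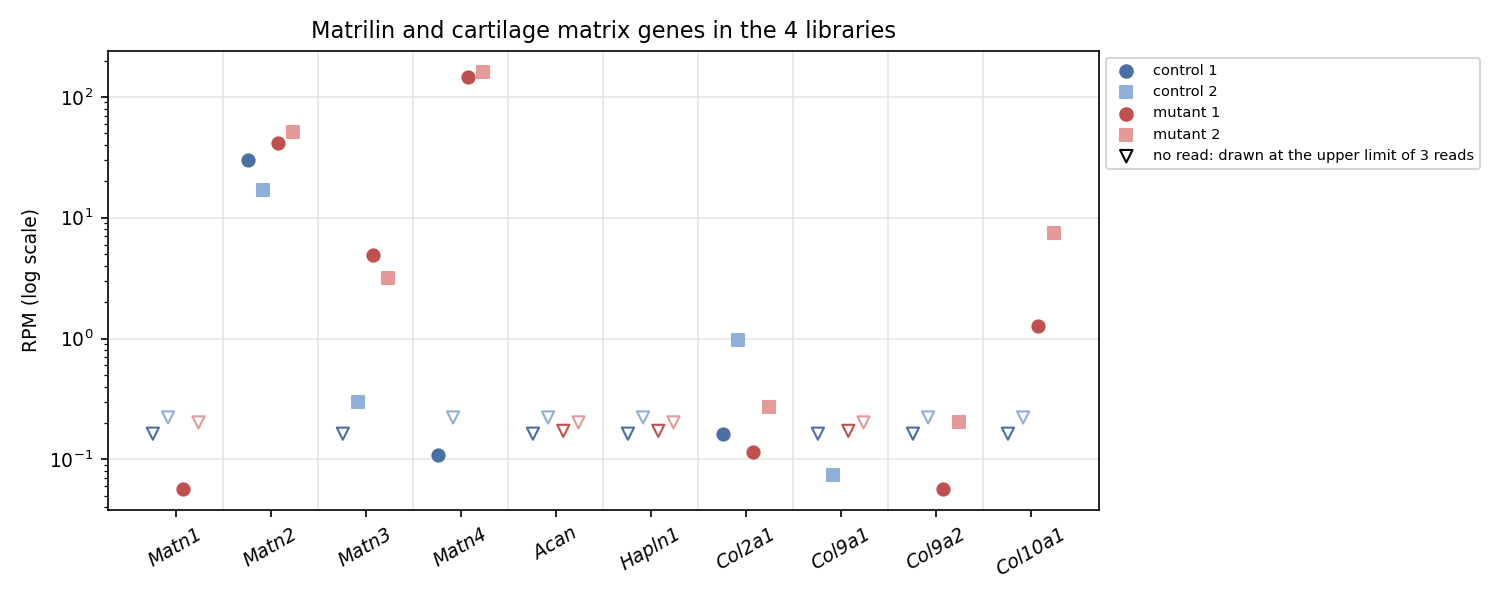
RPM (log axis) of the 10 members in each of the 4 libraries, with an open triangle at the limit of 3 reads where a library had no read. Matn4 is the member with mutant libraries at 147 RPM or more and controls at or below 0.108, and the points of Acan and Hapln1 are limits only.

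Matn4 encodes matrilin-4, which is found in loose connective tissue as well as in cartilage. Its gene spans 164389393 to 164405160 of chromosome 2 (minus strand, GRCm38, ENSMUSG00000016995.17). This is the annotated gene, since the position of the amplicon was not stated. The controls had 0.108 RPM (control 1, 2 reads) and no read (control 2), and the mutants 147 RPM (mutant 1) and 162 RPM (mutant 2). The groups do not overlap, and the mutants differed from each other by a ratio of only 1.1 (95% exact counting interval 1.04 to 1.16). Control libraries averaged 0.054 ± 0.0764 RPM and mutant libraries 155 ± 10.5 RPM (SD, n = 2 libraries per group), and the ratio of pooled reads was 2459 (95% counting interval 680 to 20311). The log2 fold change was 7.21 (SE 0.29, limma adjusted p = 0.00472), the 6th largest rise and the 3rd smallest p of 11638 genes. Without control 2, the library with most macrophage signal, its size was 7.13, with the spread taken from the mutants alone. With 1 mutant library left, assumed to vary like the controls, the size held but the call ended, at 7.28 without mutant 1 (adjusted p = 0.475) and 7.14 without mutant 2 (adjusted p = 0.532). No gene of the table was called in those 2 fits by limma, with 565 and 516 genes higher at an unadjusted p under 0.05.

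The Matn4 gene overlaps Rbpjl, a transcription factor gene related to the Notch effector Rbpj, by 2020 bases on the opposite strand (chromosome 2, 164403141 to 164405160). The printed Matn4 window lies inside Rbpjl. Whether reads were assigned by strand was not stated, so reads of the 2 genes from the shared stretch could not be told apart. The Rbpjl amplicon had no read in the controls, 0.745 RPM in mutant 1 and 0.741 in mutant 2, which is at least 3.86-fold higher, as mean RPM, when set against 3 reads in each control. It did not reach the filter. Slpi, a secreted protease inhibitor gene and the neighbour on the other side, ranged from 0.269 RPM (mutant 2) to 0.89 RPM (control 2) and was not tested either. Neither neighbour reached 1 RPM in any library.

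The tested genes whose 4 values lay closest to those of Matn4, by Euclidean distance of log2(RPM + 1) over the 4 libraries, were Gli1 (0.23), Hhip (0.82), Slc5a7 (1.29), Plagl1 (1.66) and Wfdc1 (1.9). The distance takes RPM as they stand, so it is a likeness of amplicon values and not of transcript levels. Gli1 is a transcription factor gene and target of Hedgehog signalling, and Hhip encodes a Hedgehog-binding protein induced by the same pathway. Slc5a7 encodes a choline transporter, Plagl1 an imprinted zinc finger factor and Wfdc1 a secreted protein of the whey acidic protein family. With values in the order of controls 1 and 2, then mutants 1 and 2, Gli1 had 0.108, 0.074, 159 and 183 RPM and Hhip 0, 0.297, 211 and 229 RPM. Their log2 fold changes were 7.30 and 7.60 (both adjusted p = 0.00472), beside 7.21 for Matn4. All 5 were chosen for likeness over the libraries that define the contrast, so that their differences describe the choice. Their calls ended without mutant 1 (adjusted p = 0.475) or mutant 2 (0.532), as that of Matn4 did, and that of Slc5a7 also by edgeR (0.0578).

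**Figure D2:**
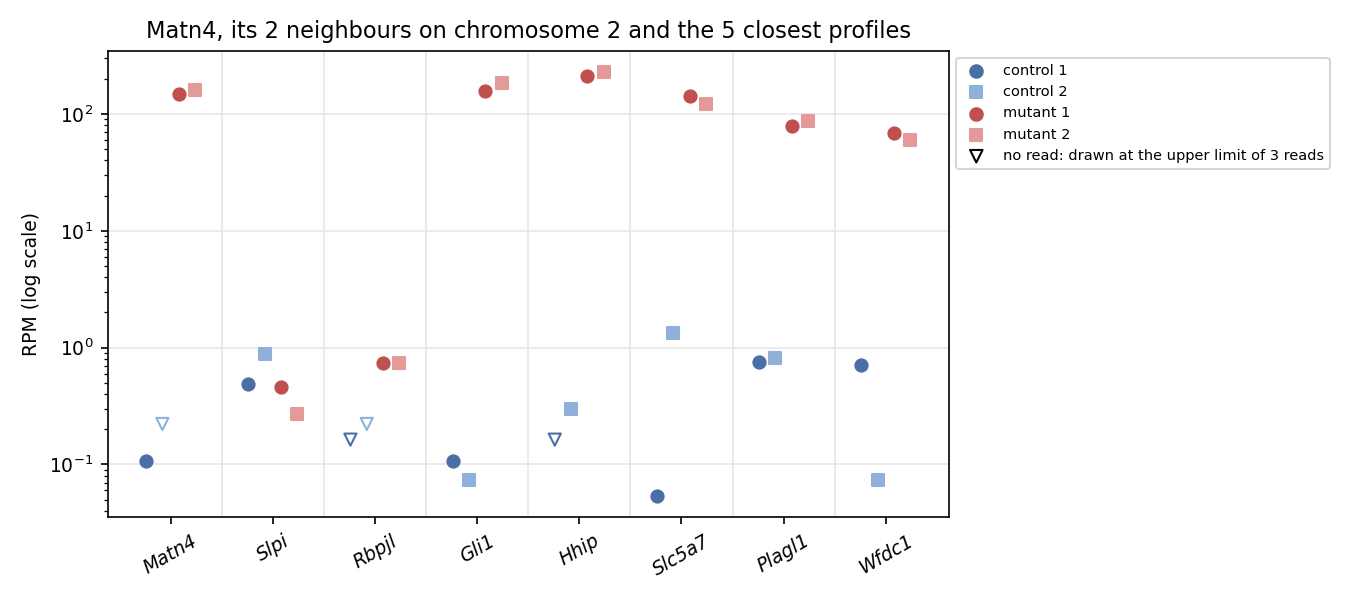
RPM (log axis) per library of Matn4, its neighbours Slpi and Rbpjl, and the 5 genes with the closest values, with open triangles at the limit of 3 reads for libraries with no read. Gli1 and Matn4 have nearly the same 4 values, while Rbpjl stands at 0.745 and 0.741 RPM in the mutants.

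Matn3, on chromosome 12 at 8947929 to 8972028 (plus strand), encodes a matrilin of growth cartilage. It had no read in control 1, 0.297 RPM in control 2 (4 reads), 4.87 RPM in mutant 1 and 3.17 in mutant 2. The groups do not overlap, and mutant 2 was the lower mutant here, at a ratio of 0.65 (95% counting interval 0.445 to 0.939). The means were 0.148 ± 0.21 and 4.02 ± 1.2 RPM, a 27-fold ratio. On the log2(RPM + 1) scale, which understates the change of low genes, the difference was 2.12 (SE 0.39, adjusted p = 0.0708). It passed by DESeq2 (adjusted p = 0.00931) and did not by edgeR (0.177). With the spread taken from the mutants alone it passed without control 1 (0.02) and without control 2 (0.0124). The difference rests on 132 reads over both mutants against 4 over both controls.

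Matn2, on chromosome 15 at 34306677 to 34436273 (plus strand), encodes the matrilin of widest distribution. It was the only member above 1 RPM in the controls, with 30.1 and 17.0 RPM in controls 1 and 2, and 41.6 and 51.4 RPM in mutants 1 and 2. Both mutants lay above both controls, with means of 23.6 ± 9.29 and 46.5 ± 6.93 RPM. The log2 fold change was 1.00 (SE 0.35, adjusted p = 0.234). It moved from 0.60 without control 2 (adjusted p = 0.141) to 1.39 without control 1, where it passed with the spread of the mutants alone (adjusted p = 0.01). Matn1, the first matrilin found in cartilage, gave 1 read in mutant 1 and none elsewhere. The 4 matrilins thus had 3 patterns: a single read (Matn1), present in every library (Matn2), and seen almost only in the mutants (Matn3 and Matn4).

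Among the collagens, Col10a1, on chromosome 10 at 34389981 to 34397085 (plus strand), had no read in either control, 1.26 RPM in mutant 1 and 7.54 in mutant 2. With 134 reads in the mutants it was at least 22.9-fold higher, as mean RPM, when set against 3 reads in each control. The SD of the mutants (4.44 RPM) was as large as their mean (4.4 RPM), and the log2 fold change was 2.14 (SE 0.68, adjusted p = 0.206). DESeq2 called it (adjusted p = 0.000394) and edgeR did not (0.146). Without mutant 1 the log2 fold change was 3.09 (adjusted p = 0.475), and without mutant 2 it was 1.18 (0.718).

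Col2a1, the gene of the main cartilage collagen, had 0.163 and 0.964 RPM (3 and 13 reads) in the controls, with 0.115 and 0.269 RPM (2 and 4 reads) for the mutants. The groups overlap, its highest value was in a control, and the ratio of pooled reads was 0.371 (95% counting interval 0.119 to 0.997). Col9a1 gave 1 read in control 2 and none elsewhere, and Col9a2 gave 4 reads, all in the mutants (0.057 and 0.202 RPM). Acan, the gene of aggrecan, and Hapln1, that of link protein, were listed at 0 in all libraries, which allows up to 0.222 RPM in the shallowest. Of the 23930 amplicons 4530 were at 0 in all libraries, and whether those of Acan and Hapln1 can detect their transcripts was not tested. Differences in Matn1, Col9a1 and Col9a2 were not detectable at this depth. Of the 8 members with a read, 5 had both mutants above both controls, against 23.6% of the 19400 amplicons with a read. One of the 5, Col9a2, rests on its 4 reads.

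**Figure D3:**
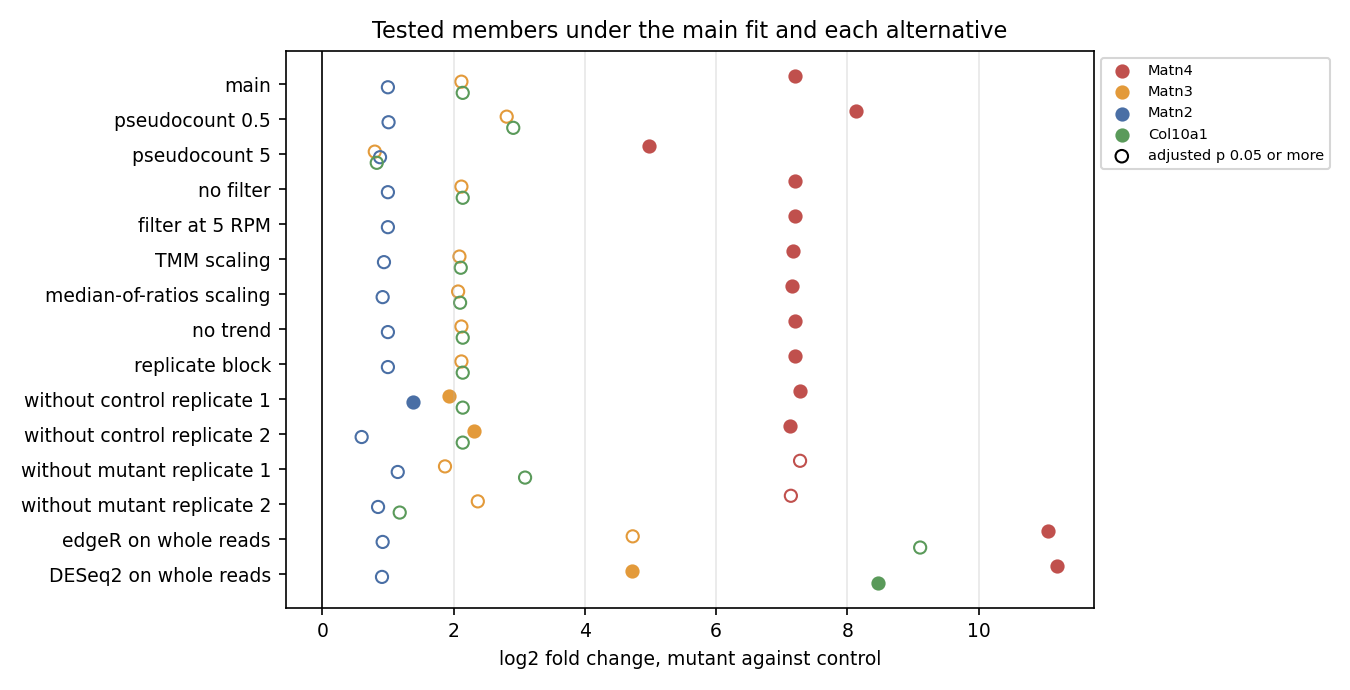
Log2 fold change of the 4 tested members (x axis) under the main setting and each alternative (y axis), filled where the adjusted p was below 0.05. Matn4 is filled in all settings except the 2 that leave out a mutant library, and a member missing from a row was below that filter.

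The members also differed in how far the 2 mutant libraries stood apart. Col10a1 was 5.99 times as high in mutant 2 as in mutant 1 (95% counting interval 3.77 to 9.93), against 1.1 for Matn4, 1.24 for Matn2 and 0.65 for Matn3. In the growth plate and hypertrophy list, Ibsp, the bone sialoprotein gene, showed a ratio of 6.92 (4.55 to 10.9) and Alpl, the alkaline phosphatase gene of mineralising cells, one of 5.38 (3.67 to 8.1). Of 11480 amplicons that averaged 1 RPM or more over the mutants, 60 (0.523%) were at least 5 times as high in mutant 2, and the median ratio was 0.997. Among the 4 members at that level 1 was, and among the 6 genes of the growth plate list 2 were. Bmp6, Mmp13, Pth1r and Spp1 of the same list had ratios of 1.52, 1.2, 1.04 and 0.691. The difference between 2 libraries of a group has no replicate check, and these intervals cover counting error only.

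**Figure D4:**
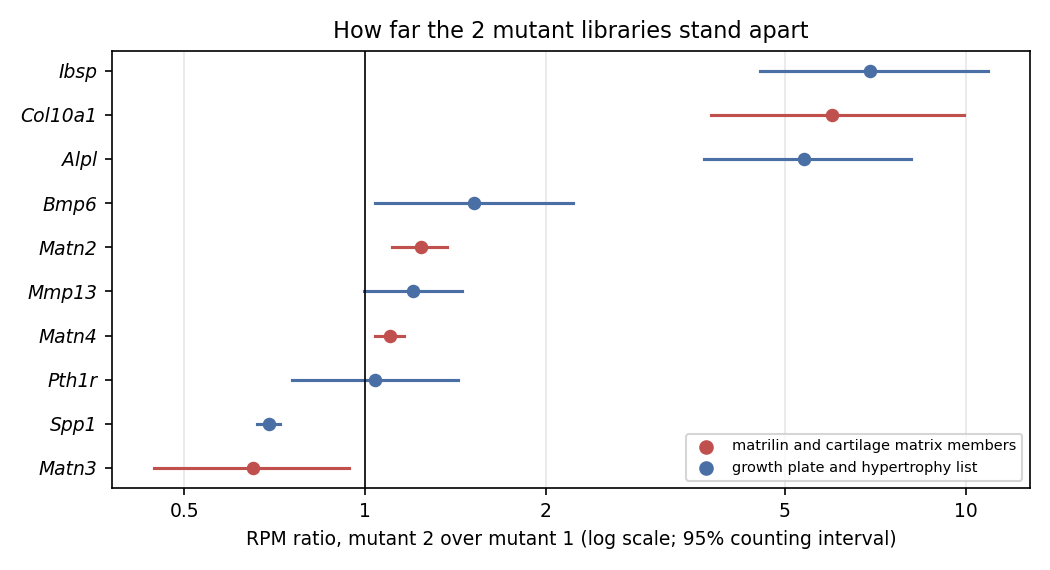
RPM ratio of mutant 2 over mutant 1 (log axis) with its 95% counting interval, for members and growth plate genes averaging 1 RPM or more over the mutants. Ibsp, Col10a1 and Alpl stand above 5, and Matn4 is at 1.1.

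Other cartilage matrix genes were read from a list of 22, of which 21 were in the table. Of 8 tested, 1 rose, 0 fell and 7 did not pass, with a median log2 fold change of 0.64 beside 0.08 over all tested genes. The log2 fold change was positive for 5 of the 8 and negative for 3. At an unadjusted p under 0.05 (limma), 3 were higher and 0 lower, edgeR called 0, and DESeq2 called 2 higher and 0 lower. For this list and those below, the shares over all tested genes were 11.9% higher and 6.01% lower at that unadjusted p. By DESeq2 they were 5.14% and 4.24%. For edgeR and for the fits that leave out a control, the shares are those given with the members above. Values of 4 libraries are given as controls 1 and 2, then mutants 1 and 2. Cilp, which encodes a protein of the intermediate layer of cartilage, rose from 0.325 and 2.67 RPM in the controls to 32.5 and 37.2 RPM in the mutants (log2 fold change 4.02, adjusted p = 0.0386). This call ended with a pseudocount of 0.5 (adjusted p = 0.0528), with no filter (0.0834), by edgeR (0.118), and without mutant 1 (0.549) or mutant 2 (0.61). Comp, a pentameric partner of matrilins and collagens, stood at 18.7, 1.71, 75.7 and 116 RPM (3.69, adjusted p = 0.14). It passed by DESeq2 (0.00404) and not by edgeR (0.228). Its value moved with the control left out, and with the spread between the controls gone it passed (5.13 without control 1, adjusted p = 0.000158, and 2.26 without control 2, adjusted p = 0.00285). Col11a1, a collagen of cartilage fibrils that fibroblasts also make, stood at 266, 90.6, 417 and 350 RPM (adjusted p = 0.288), and Col27a1 at 0.975, 3.19, 5.67 and 5.79 RPM (0.267). Prg4 went the other way, at 3.8, 3.1, 2.1 and 1.3 RPM (-0.74, adjusted p = 0.365). Col9a3 was not tested and stood at 2.93, 0.519, 0.458 and 0.337 RPM, with 61 reads over both controls and 13 over both mutants. Without control 1, 3 of the list were higher and 1 lower, and Col11a1 was among the higher (2.07, adjusted p = 0.00101). Without control 2 the counts were 3 and 0, and Col27a1 was among the higher (1.77, 0.0184), with Col11a1 at 0.52 (0.133).

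Of 5 tested hyaluronan-binding proteoglycans, link proteins and hyaluronan synthases none passed (limma), with 0 higher and 3 lower at an unadjusted p under 0.05, 0 called by edgeR and 2 lower by DESeq2. Hapln4, a link protein gene related to Hapln1, had 18.4, 8.38, 0.974 and 1.68 RPM (-2.55 on the log2 scale, adjusted p = 0.0725). The hyaluronan synthase genes Has1 and Has2 stood at 7.80, 33.1, 0.687 and 0.471 RPM (-3.46, adjusted p = 0.0855) and at 25.3, 62.0, 19.6 and 13.9 RPM (-1.21, 0.28). The aggrecan relative Vcan stood at 106, 287, 173 and 150 RPM (adjusted p = 0.927), with its control values on both sides of the mutants. The list's median log2 fold change was -1.21. Without control 1, 4 of the 5 were lower: Hapln4 (-2.03, adjusted p = 0.0147), Has1 (-4.44, 0.00052), Has2 (-1.84, 0.00593) and Vcan (-0.83, 0.0278). Without control 2, 2 were, Hapln4 (-3.07, 0.00285) and Has1 (-2.48, 0.0074), and Vcan turned to 0.60 (0.0866).

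Of 7 tested chondrogenic transcription factors none passed (limma), with 3 higher and 0 lower at an unadjusted p under 0.05, 0 called by edgeR and 2 higher by DESeq2, and a median log2 fold change of -0.06. Sox9, the factor that turns on Col2a1 and Acan in cartilage, was present at 55.4, 101, 45.8 and 53.9 RPM (-0.58, adjusted p = 0.437). The Acan amplicon was at 0 in the same libraries, and whether it can detect its transcript was not tested. Mef2c and Runx2, factors of hypertrophy and bone, stood at 1.73, 2.52, 8.82 and 13.4 RPM (1.94, adjusted p = 0.0794) and at 40.4, 35.0, 60.1 and 74.3 RPM (0.81, 0.175). Arid5b, a chromatin factor that works with Sox9 in cartilage, stood at 158, 93.5, 373 and 354 RPM (1.57, adjusted p = 0.0794). Without control 1, Arid5b (1.95, adjusted p = 0.00091), Mef2c (1.76, 0.0186) and Runx2 (0.91, 0.0325) were higher and Sox9 lower (-1.01, 0.0192). Without control 2, Arid5b (1.19, 0.00634) and Mef2c (2.12, 0.0108) were higher, none was lower, and Sox9 was at -0.16 (0.683).

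None of 7 tested growth plate and hypertrophy genes passed (limma), with 1 higher and 1 lower at an unadjusted p under 0.05, 0 called by edgeR, and 1 higher and 2 lower by DESeq2. The median log2 fold change was 0.03. Ibsp had no read in either control, 1.49 RPM in mutant 1 and 10.3 in mutant 2 (adjusted p = 0.201), and Alpl stood at 1.46, 0.742, 1.89 and 10.2 RPM (0.362). Ibsp, the gene higher at that unadjusted p and by DESeq2, reached the filter through the mutants alone, so the filter fixed its direction. Mmp13, a collagenase gene of hypertrophic cartilage, stood at 67.6, 20.6, 12.9 and 15.5 RPM (-1.35, adjusted p = 0.31). Spp1 stood at 906, 17344, 312 and 216 RPM (-3.93, adjusted p = 0.232), with its highest value in control 2, the library with most macrophage signal, whose part in this was not tested. Without control 1, 1 gene of the list was higher and Spp1 lower (-6.06, adjusted p = 7.63e-05), with Mmp13 at -0.51 (0.23). Without control 2, 3 were lower, among them Spp1 (-1.80, 0.00449) and Mmp13 (-2.18, 0.00225).

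Of 6 tested aggrecanase and inhibitor genes 1 rose, 0 fell and 5 did not pass, with a median log2 fold change of 0.82. At an unadjusted p under 0.05 (limma), 3 were higher and 0 lower, with 1 and 0 by edgeR and 3 and 1 by DESeq2. Adamts1, a protease gene whose product can cut aggrecan and versican, rose from 116 and 123 RPM to 525 and 649 RPM (2.28, adjusted p = 0.0219), a call that ended without mutant 1 (0.475) or mutant 2 (0.532). The main aggrecanase gene Adamts5 (187, 72.0, 396 and 332 RPM, adjusted p = 0.175), the inhibitor gene Timp3 (1215, 893, 2973 and 2561 RPM, 0.104) and Adamts15 (62.8, 20.5, 14.1 and 13.4 RPM, 0.296) did not pass. Without control 1, Adamts1, Timp3 (adjusted p = 0.00494) and Adamts5 (0.000649) were higher and none lower, with Adamts15 at -0.54 (0.196). Without control 2, Adamts1, Timp3 (0.0184) and Adamts5 (0.0207) were higher and Adamts15 lower (-2.11, 0.00223).

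Of 8 genes of the fibroblast matrix and surface none passed (limma), with 4 higher and 0 lower at an unadjusted p under 0.05, 0 called by edgeR and 2 higher by DESeq2, and a median log2 fold change of 0.91. The collagen I gene Col1a2 stood at 3843, 3184, 7507 and 7512 RPM (1.10, adjusted p = 0.226), and Col5a1 at 650, 1017, 1540 and 1737 RPM (1.01, 0.203). Lum, which encodes a small proteoglycan of collagen fibrils, stood at 6.83, 8.38, 19.9 and 25.2 RPM (1.45, adjusted p = 0.0948), and the stromal surface gene Thy1 at 2060, 2060, 3982 and 3250 RPM (0.80, 0.278). All 8 were present in every library, with a positive log2 fold change for 6 and a negative one for 2. Those 2 were Dcn, at 525, 760, 471 and 316 RPM (-0.71, adjusted p = 0.332), and Col3a1, at 750, 2113, 897 and 1133 RPM (-0.32, 0.795). Without control 1, 2 were higher and 2 lower, with Lum (adjusted p = 0.0211) and Col1a2 (0.0249) higher. Without control 2, 3 were higher and 0 lower, Lum (0.0128) and Col5a1 (0.00797) among them.

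**Figure D5:**
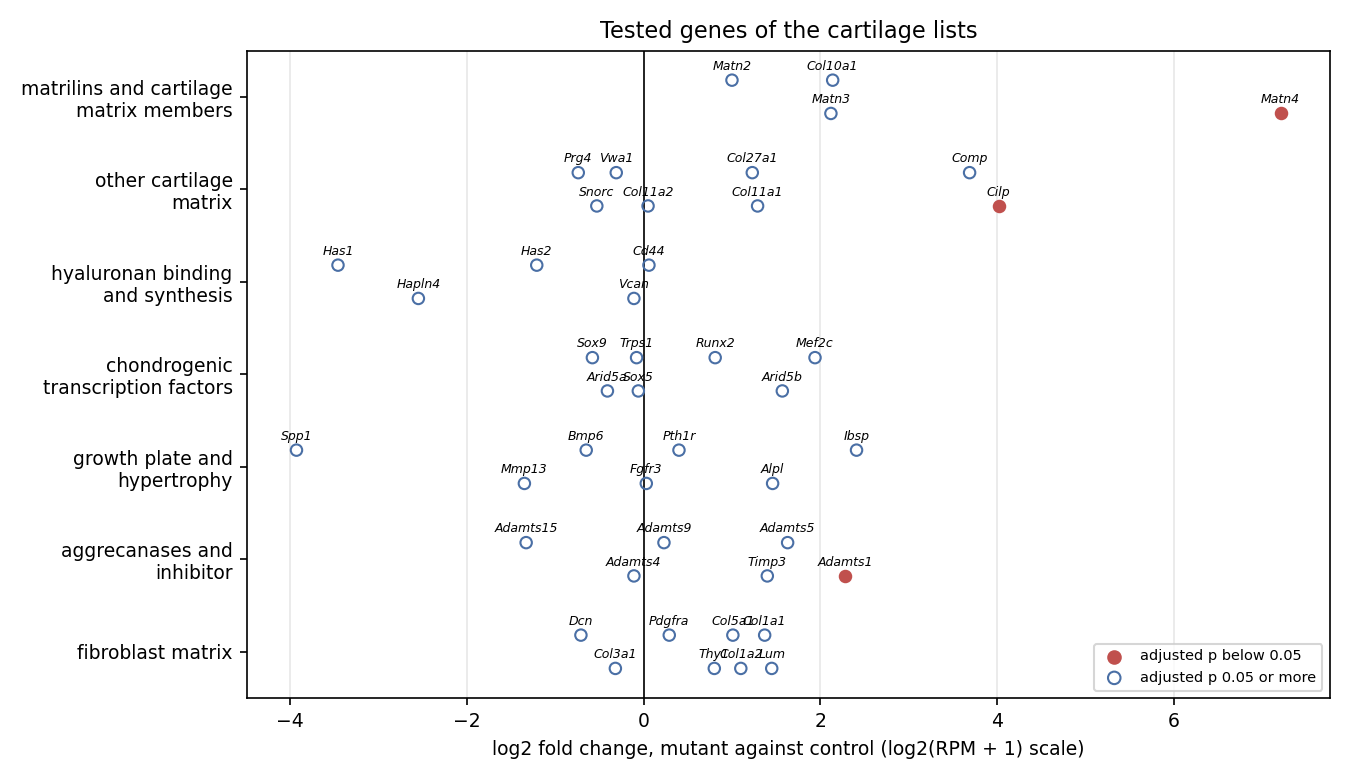
Log2 fold change on the log2(RPM + 1) scale (x axis) of every tested gene of the cartilage lists (y axis), filled where the adjusted p was below 0.05. Matn4 at 7.21, Cilp at 4.02 and Adamts1 at 2.28 are filled, and the other genes shown did not pass.

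Markers of other cells that the cultures could hold, beside the macrophages above, were as follows. The 6 keratinocyte markers summed to 0.163 to 1.71 RPM in the controls and 0.573 to 1.08 in the mutants, with Krt5 and Krt1 at 0 throughout. The 6 endothelial markers summed to 9.97 and 84.8 RPM in the controls and to 18.3 and 36.6 in the mutants. Tie1 was at 0 throughout, while Pecam1, Cdh5, Kdr, Tek and Emcn had reads in every library. The 6 skeletal muscle markers summed to 57.2 and 114 RPM in the controls and to 42.6 and 115 in the mutants. Myod1 and Ckm were at 0 throughout, and nearly all of the sum came from Acta1 (6.07, 88.9, 25.4 and 53.9 RPM) and Des (51.0, 24.9, 17.2 and 61.2 RPM). The 6 Schwann cell markers summed to 1.95 and 3.71 RPM in the controls and to 14.8 and 16.2 in the mutants, and this difference came mostly from S100b, which chondrocytes also express (1.08, 2.89, 12.9 and 14.9 RPM, log2 fold change 2.39, adjusted p = 0.066). Sox10, the defining factor of Schwann cells, was at or below 0.297 RPM and Cdh19 at 0 in all libraries. The part of any of these cells in the Matn4 difference was not tested.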

How the data were processed

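Messenger RNA of 4 libraries was measured, after SuperScript VILO cDNA synthesis, on an Ion AmpliSeq panel of mouse transcripts, per the labels' protocols. The deposited table gives RPM, reads per amplicon scaled to an equal total in each library. For aligner, counter, strand handling, build and filtering, the method is not given in the sources used here. Symbols were taken from amplicon names, since 27 gene names differed from them. Older symbols were matched through RefSeq.

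The steps between low RPM values gave whole reads for 100% of non-zero values within 0.01 read: 18455811 and 13483518 in controls 1 and 2, 17460018 and 14847959 in mutants 1 and 2. Intervals and the floor of 3 reads cover counting error only, since amplicon reads are not independent molecules. Ratio intervals are exact (Clopper-Pearson, 95%).

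The test was limma 3.58.1 in R 4.3.3 (trended eBayes) on log2(RPM + 1), two-sided, for genes reaching 1 RPM in 2 or more libraries, with Benjamini-Hochberg adjustment over all of them and a threshold of 0.05. It was also run on simulated reads with the same spread in both groups. The real controls stood further apart than the mutants, so that run gives no check on unequal spread. Alternatives were other pseudocounts, filters and scalings, a fit with replicate block or no trend, leaving out each library, and edgeR 4.0.16 (quasi-likelihood, 66 genes higher and 27 lower) and DESeq2 1.42.0 (598 and 493) on the whole reads. Figures used matplotlib 3.10.9.

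The members and lists were chosen with earlier results of these data known. Named were the 10 members, up to 4 tested genes with the smallest p of each cartilage list, the neighbours of a called member, the 5 genes closest to it in profile (predicted genes passed over), and Xist and Ddx3y as checks. Genes named beyond this rule were chosen after their values were seen. Gene positions are from GENCODE M21 (GRCm38) by symbol.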

Additional observations from a re-analysis of the deposited data

How the results depend on the processing

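Over all 11638 tested genes, 201 were higher and 67 lower in the mutants. With no filter these were 56 and 18 of 19400, by edgeR 66 and 27, and by DESeq2 598 and 493. Leaving out 1 library gave 0 to 1609 higher and 0 to 802 lower. The 0 in both directions came without mutant 1 and without mutant 2, where limma had 565 and 516 genes higher and 240 and 261 lower at an unadjusted p under 0.05. The number of members higher, 1 in the main setting, was 3 by DESeq2 (5.14% of all genes) and 0 to 3 with 1 library left out: 3 without control 1 (13.8% of all genes), 2 without control 2 (9.15%), and 0 without either mutant. In the other alternatives it was 1, and no alternative called a member lower. Wherever a filter was set, Matn3, Matn4 and Col10a1 could enter only through the mutants, so the filter fixed their direction. Matn4 passed in 12 of 14 alternatives, with log2 fold changes of 4.98 (pseudocount of 5) to 11.20 (DESeq2). The log2 fold changes of Matn3 and Col10a1 ranged over their 13 alternatives from 0.80 to 4.73 and from 0.83 to 9.11. The direction of Vcan turned without control 2 (0.60, adjusted p = 0.0866, against -0.11, and -0.83 without control 1). Replicate numbers are shared by both groups, but no label says that they mark a pair. Same-numbered deviations had a correlation of 0.164 across genes. With the replicate block 301 genes were higher and 123 lower, Has1 (adjusted p = 0.0403) and Arid5b (0.0426) passed, and no other named gene changed its call. With the filter at 5 RPM, Matn3 and Col10a1 had no value. The cause of these changes was not tested.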

Other observations

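Snorc, a cartilage membrane proteoglycan gene listed under its older name, was chosen after its values had been seen. It had 1.95 and 2.37 RPM in controls 1 and 2, against 0.401 RPM (mutant 1) and 2.43 RPM (mutant 2). Its ratio of mutant 2 over mutant 1 was 6.05 (95% counting interval 2.65 to 16.1), on 7 and 36 reads. Unlike Col10a1 and Ibsp, which had no read in the controls, Snorc was present in both of them (36 and 32 reads).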
